A study of Mus musculus with 6 samples.

Results

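Mouse primary hepatocytes in culture, given no cytokine, were described by the position of named genes on their arrays. The untreated cells were measured on 2 of the 6 arrays of the series, those whose titles call the cells unstimulated. The other arrays held hepatocytes given recombinant murine tumour necrosis factor alpha (TNFα), an inflammatory cytokine, at 2 ng/mL for 2 hours (2 arrays) or 2 days (2 arrays). All cells came from livers of male C57Bl/6J mice and were kept on collagen-coated plates in Williams' E medium with 5% fetal calf serum, 50 nM dexamethasone (a synthetic glucocorticoid) and 1 nM insulin, so the untreated arrays show cells in serum and hormones and not cells fresh from the liver. The labels give neither the age of the mice, nor the hours the untreated cells had spent in culture, nor whether the 2 arrays came from separate animals or dishes. Spread between replicates, and every p-value below, may therefore be technical in part.

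Hepatocytes make most of the proteins of blood plasma and carry out the liver's ammonia detoxification, drug metabolism, glucose storage and bile formation. Their gene programme rests on a small set of liver-enriched transcription factors, among them the HNF4, FOXA and C/EBP families. Hepatocytes plated on collagen are known to flatten, to build up cytoskeleton and to lose part of their differentiated functions with time in culture.

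The arrays were single-colour Illumina BeadChips with 45281 probes, and the measurement is the deposited intensity of each probe on a linear scale. Every array had a lowest intensity of 96.5, a highest of 47615 and a median between 143.16 and 143.22, and values of equal rank on different arrays lay within 0.333% of each other. Levels are given below as intensities on replicate 1 and replicate 2, in that order, or as log2 of the intensity over the median of all probes on the same array, averaged over both replicates. A gene was represented by its brightest probe over the 6 arrays. Because a probe's brightness also depends on its sequence, the order of genes is an order of probe brightness and not of transcript amounts.

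Brightness without known transcription in liver was gauged on 1266 olfactory, vomeronasal and trace amine receptor genes, which act in sensory neurons. Their median intensity was 133 on both replicates, and their 95th percentile, 0.13 above the array median on the log2 scale, served as the receptor reference. A gene counts as above it when its probe exceeded that level on both untreated arrays, which 45.4% of the 19057 genes with a listed probe did. The receptor genes had 1.21 probes each on average, whereas 9172 of the 19057 genes had several. Reading the brightest of several probes can lift a gene over a level set mostly on single probes. Of all listed genes, 7.84% lay in the top 5% of probes on both arrays and 1.33% in the top 1%. A gene at or under the reference was not told apart from these receptor genes by its probe, which does not show that its RNA was absent.

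The named genes were 879 members of 33 lists, of which 792 were listed on the array. These lists were chosen with earlier results of these data known, so the order of the classes describes the lists and tests nothing. Among the 8 classes, secreted proteins had the highest median level. Of 131 listed genes of secreted proteins, 115 were above the receptor reference, 63 in the top 5% and 30 in the top 1%, with a median level of 3.51. Enzymes followed with 141 of 183 above the reference, 60 in the top 5% and a median of 2.20. Transporters had 61 of 80 above the reference and 14 in the top 5%, and transcription factors 73 of 96 and 14, with medians of 1.24 and 1.35. Receptors had 54 of 103 above the reference and 6 in the top 5%, at a median of 0.18. Markers of other liver and blood cells had 35 of 130 above the reference and 1 in the top 5%, at a median of 0.04. Genes of lobular regions had 27 of 47 above the reference and 10 in the top 5%, and genes of culture state 39 of 63 and 19, with medians of 0.29 and 0.54. Within culture state, the fetal and dedifferentiation list alone had a median of 3.83. The median over all listed genes was 0.10. A normexp background correction keeps the order of probes on an array, so it cannot test the order of the classes. It moved the medians to 3.45 for enzymes, 2.25 for transporters, 2.40 for transcription factors, 0.45 for receptors and 0.11 for markers of other cells. When all probes of each gene were averaged, transporters had a median of 0.64, transcription factors of 0.79, receptors of 0.087 and markers of other cells of -0.015, and 5 transporters and 3 receptors lay in the top 5%. Members named with a level alone were picked for their known roles after the values were seen.

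**Figure D1:**
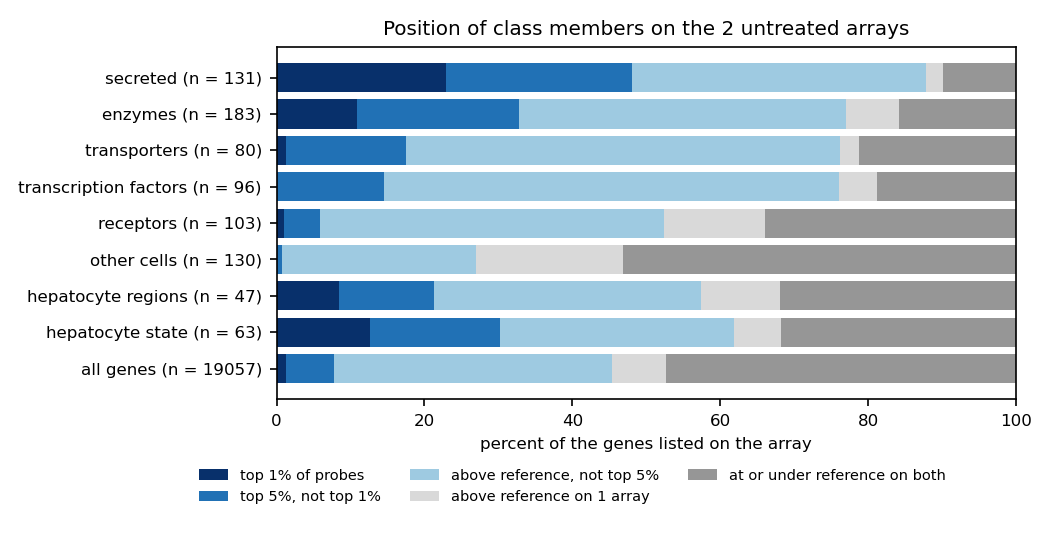
Share of the listed genes of each class, in percent (horizontal axis), by position on the 2 untreated arrays; colours mark the top 1% of probes, the rest of the top 5%, the rest above the receptor reference, genes above it on 1 array only, and genes at or under it on both. Secreted proteins have the widest dark segments, with 63 of 131 genes in the top 5%, and markers of other cells the narrowest, with 1 of 130.

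The hepatocyte label was checked on 16 marker genes, of which 15 were listed. Of these, 10 were above the receptor reference, 8 in the top 5% and 5 in the top 1%. Ttr (transthyretin, a thyroid hormone and retinol carrier) read 32501 and 32934, Cps1 (the entry enzyme of the urea cycle) 15129.5 and 12046, Asgr1 (a subunit of the hepatocyte asialoglycoprotein receptor) 4810.4 and 3926 and Hnf4a (a master regulator of hepatocyte genes) 2392 and 1982. The exceptions were Tat, Fabp1 and Tdo2, at or under the reference on both arrays, and Alb and Pck1, above it on 1 array only. Albumin is the main plasma protein made by hepatocytes, yet its only probe read 174 and 145 on the untreated arrays and between 145 and 157 on the 4 TNFα arrays. What this probe measures was not tested.

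**Figure D2:**
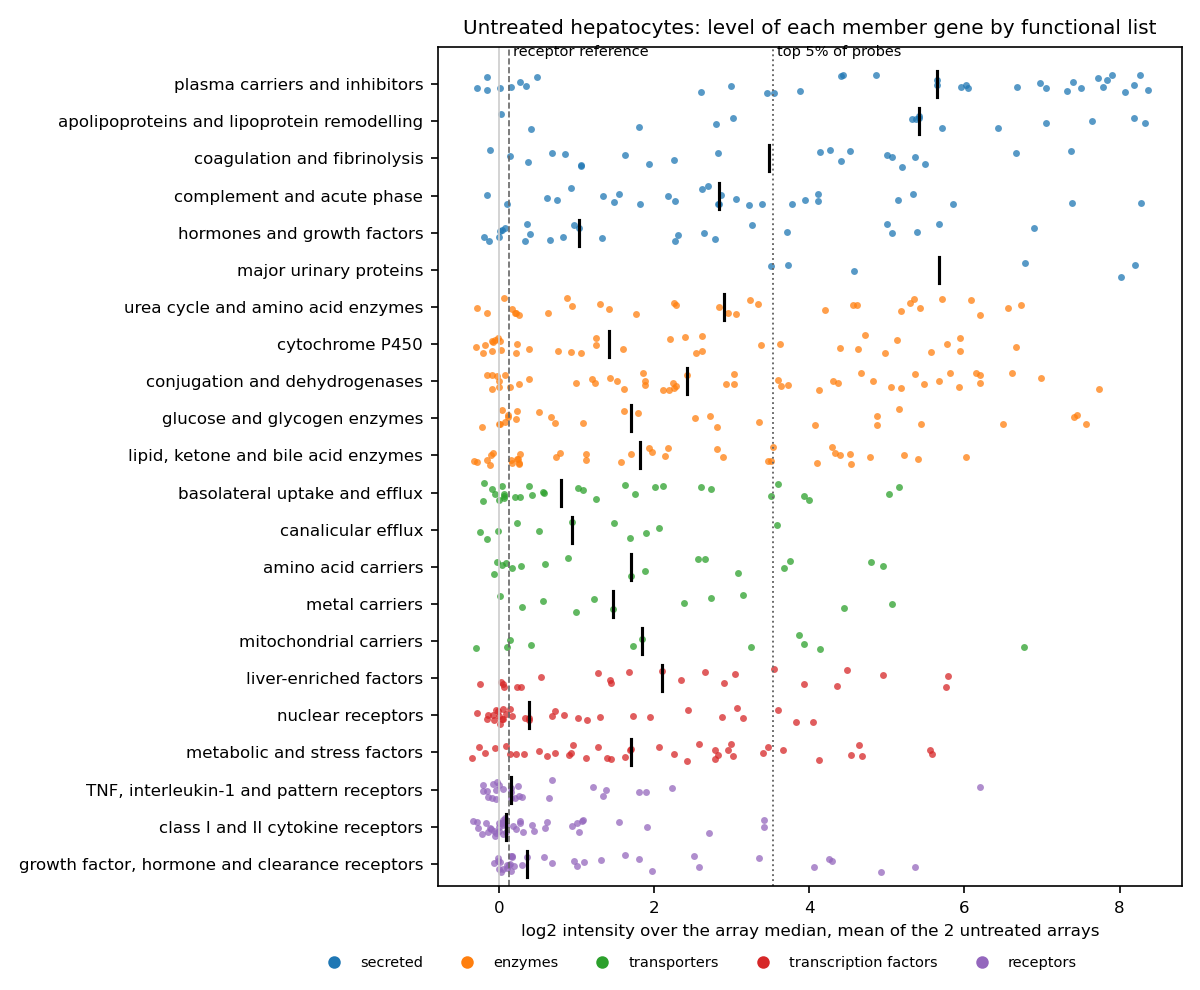
Level of each listed gene (1 point per gene) in 22 lists of secreted proteins, enzymes, transporters, transcription factors and receptors, as log2 intensity over the array median, mean of the 2 untreated arrays; black bars are list medians, the dashed line is the receptor reference and the dotted line the lower edge of the top 5% of probes. Medians run from 5.68 for the major urinary proteins to 0.09 for the class I and II cytokine receptors, and the points of most lists span from the reference to above the dotted line.

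Plasma carriers and protease inhibitors were the brightest large list, with 30 of 35 genes above the reference, 23 in the top 5%, 17 in the top 1% and a median level of 5.65. Hpx (hemopexin, which binds free haem) read 47014 and 47615, the latter being the highest intensity of the array. Trf (transferrin, the plasma iron carrier) read 44417 and 43704, Ahsg (fetuin-A, an inhibitor of calcification) 42732 and 40741 and Hp (haptoglobin, which binds haemoglobin) 39043 and 38156. Each of these carriers lay in the top 1% of probes on both arrays. Cp (ceruloplasmin, a copper-carrying ferroxidase) had a level of 6.67 and Vtn (vitronectin, an adhesion protein of plasma) of 5.64. Apart from Alb, the carriers that did not exceed the reference were Afp, Orm3, Serpina6 and Pzp. Afp, alpha-fetoprotein, is the albumin-like carrier of the fetal liver and read 142 and 147.

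Serpina1a to Serpina1e encode alpha-1 antitrypsins, inhibitors of neutrophil elastase, and are near-identical copies, so that their probes may share signal. Their levels were Serpina1b 7.90, Serpina1d 7.72, Serpina1e 7.32, Serpina1c 7.05 and Serpina1a 3.88. The same limit holds for the major urinary proteins, pheromone carriers of the mouse, of which 6 of 6 listed genes were above the reference and 4 in the top 5%. Mup2 read 41074 and 43135 and Mup3 35408 and 38927, Mup6 16673 and 14774 and Mup21 4175 and 2799, whereas Mup5 read 2792 and 1291.

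Because the carriers were bright together, their proximal promoters were read from RefSeq sequence on GRCm38.p6, as the 250 bases before the first listed start. A promoter was listed for 15237 of the 19057 genes on the array and for 29 of the 35 carriers. The motif GTTAAT, known from promoters of liver genes, was searched on both strands. It was found in 14 of 29 carrier promoters (48.3%), against 859 of 15237 over all genes (5.64%). Counting the Serpina1 copies once, it was in 10 of 25 (40.0%). The windows below show it in capitals (ATTAAC where it lies on the opposite strand) in 5 carriers above the reference, printed 5′ to 3′ along the gene's strand, so that its place before the start can be compared.
Serpina1b, chr12:103738190-103738249, minus strand: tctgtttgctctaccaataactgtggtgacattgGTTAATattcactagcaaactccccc
Cp, chr3:19956833-19956892, plus strand: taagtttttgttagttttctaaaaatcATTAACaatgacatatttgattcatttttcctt
Vtn, chr11:78498981-78499040, plus strand: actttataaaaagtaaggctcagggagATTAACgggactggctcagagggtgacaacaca
Serpina7, chrX:139085261-139085320, minus strand: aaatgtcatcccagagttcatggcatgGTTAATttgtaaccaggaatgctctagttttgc
Itih1, chr14:30943290-30943349, minus strand: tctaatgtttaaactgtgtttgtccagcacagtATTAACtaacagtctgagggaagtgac
The motif began 26 bases before the start in Serpina1b, 27 in Itih1, 57 in Serpina7 (the carrier of thyroxine), 112 in Vtn and 194 in Cp. Within the carriers the motif was in 8 of 18 promoters of genes in the top 5%, in 6 of the 11 others, and in 3 of the 4 not above the reference (Alb, Afp and Pzp). Hpx, Ahsg and Ambp lack it in this window.

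Over the whole class of secreted proteins, GTTAAT was in 29 of 107 promoters (27.1%), and TTGCNNAA, letters bound by C/EBP factors, also in 29 of 107 (27.1%) against 8.76% over all genes. Both counts of secreted protein promoters hold the Serpina1 copies separately. GTTAAT was in 13.2% of enzyme promoters, 6.25% of those of transcription factors, 3.61% of those of receptors and 3.17% of those of transporters. TTGCNNAA was in 18.1%, 7.50%, 14.5% and 7.94% of these, in that order. Of the other motifs searched on both strands, TATAAA was in 17.8% of secreted protein promoters against 11.6% over all genes, TGTTTAC (a FOXA motif) in 6.54% against 2.64%, CAAAGTCC (an HNF4 motif) in 1.87% against 1.31%, TGNACTTTG (another HNF4 motif, whose letters can overlap the reverse of CAAAGTCC) in 1.87% against 1.20%, and CCAAT in 28.0% against 35.8%. These shares describe letters in a window and no binding.

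Apolipoproteins, the protein parts of lipoproteins, had 14 of 15 listed genes above the reference, 10 in the top 5% and a median of 5.41. Apoc3 (an inhibitor of lipoprotein lipase) read 47615 and 44417, Apoa1 (the main protein of high-density lipoprotein) 41417 and 41715 and Apoa2 31038 and 26385. Apoc1 read 20115 and 17851. Apob, the scaffold of very-low-density lipoprotein, had a level of 5.32, and Mttp, which loads lipid onto it, of 1.80. Pltp (phospholipid transfer) was the member at or under the reference.

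Coagulation and fibrinolysis genes had 20 of 22 above the reference and 11 in the top 5%. Kng1 (kininogen) read 23679.6 and 23808 and F2 (prothrombin) 6779.7 and 6124. Fibrinogen is assembled from 3 chains, and their probes differed: Fga read 17130.5 and 12313 and Fgg 6547 and 5282, while the only probe of Fgb read 147 and 119, at or under the reference. Serpinc1, antithrombin, was just above the reference at 180.1 and 192.

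Complement and acute phase genes had 26 of 28 above the reference and 9 in the top 5% (5 with ranks among genes), in cells given no cytokine. Lcn2 (lipocalin 2, which binds bacterial siderophores) read 44791 and 44284 and lay in the top 1% of probes. Saa1 (serum amyloid A) read 25646 and 22469 and Crp (C-reactive protein) 9066 and 7555. Cfi and Mbl2, a regulator and a recognition lectin of complement, had levels of 5.34 and 5.14, whereas Hamp, the iron hormone hepcidin, had 2.61 and the protease gene C1ra lay at or under the reference. Which part of these levels was present before culture was not tested.

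Hormones, growth factors and their binding proteins were less uniform, with 19 of 25 above the reference, 6 in the top 5% and a median of 1.04. Fgl1 (a secreted fibrinogen-like protein) read 18706 and 15484, Angptl4 (an inhibitor of lipoprotein lipase) 7142 and 7487 and Igf1 (insulin-like growth factor 1) 6439 and 5553. Igfbp4, which binds it, read 4878 and 4715. Igf2, Hgf, Bmp2, Mst1, Bmp6 and Lect2 were at or under the reference.

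Among enzymes of the urea cycle and amino acid breakdown, 25 of 32 were above the reference and 12 in the top 5%, with a median of 2.90. Arg1 (arginase, the last step of the urea cycle) read 16188 and 14217 and Cps1 15129.5 and 12046. Ass1 and Asl, the steps between, had levels of 5.43 and 2.25, but Otc, which joins carbamoyl phosphate to ornithine, read 128 and 130.2 and was not told apart from the reference. Glud1 (glutamate dehydrogenase) and Fah (the last step of tyrosine breakdown) read 10779 and 10265 and 11366 and 8276. Tat, the first enzyme of tyrosine breakdown and a classic target of glucocorticoids, read 119.7 and 116 although the medium held dexamethasone.

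Cytochrome P450 genes split widely: 24 of 36 were above the reference and 10 in the top 5%, while 10 were at or under the reference on both arrays. Cyp2c70, which makes muricholic acids, read 15331 and 13849, Cyp2a12 9114 and 8589, Cyp3a13 9435 and 8265 and Cyp2b10, a target of the receptor CAR, 7737 and 7958. Cyp3a11 (a drug-metabolising enzyme induced through PXR) had a level of 4.40, Cyp2e1 (ethanol oxidation) of 2.20 and Cyp1a2 of 0.38. Genes of the bile acid pathway differed too, with Cyp27a1 at 4.72 and Cyp7b1 at 2.62, and with Cyp7a1 and Cyp8b1 at 0.24 and 0.22. Those not told apart from the reference were Cyp2c54, Cyp2c38, Cyp2c39, Cyp2a4, Cyp3a16, Cyp2c29, Cyp2b9, Cyp4a14, Cyp1a1 and Cyp2j5. P450 subfamilies are made of close copies, so single names within them are uncertain.

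Conjugation and dehydrogenase genes had 41 of 49 above the reference and 19 in the top 5%, or 12 when all probes were averaged. Gstp1 (a glutathione transferase) read 30288 and 30710.0, Adh1 (alcohol dehydrogenase) 20535 and 16055, Mgst1 14179.7 and 13741 and Ephx1 (microsomal epoxide hydrolase) 10265 and 10884. The sulphotransferases spread from Sult1a1 at 5.81 to Sult2a1 at -0.09, which was at or under the reference with Sult1b1, Ces2a, Ces1g, Gstm3 and Ugt2b5.

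Glucose and glycogen enzymes had 21 of 28 above the reference and 9 in the top 5%. The brightest were steps of glycolysis that all cells use: Tpi1 read 27449 and 26749, Gapdh 25319.5 and 24813, Ldha 24645 and 24173 and Pgk1 12860.2 and 13011. G6pc, which releases glucose from glucose-6-phosphate, and Fbp1, a step of glucose synthesis, had levels of 2.72 and 2.53, and Pygl, liver glycogen phosphorylase, of 5.16. Both forms of pyruvate kinase were above the reference, the muscle form Pkm at 4.87 and the liver form Pklr at 1.80.

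Lipid, ketone and bile acid enzymes had 30 of 38 above the reference and 10 in the top 5%, or 6 with ranks among genes. Acadm (medium-chain fatty acid oxidation) read 9089 and 9459, Fads1 (a desaturase of polyunsaturated fatty acids) 5915 and 6167, Scd1 (which desaturates stearate) 5478 and 5187 and Sqle (a step of cholesterol synthesis) 3823 and 4069. At or under the reference were Amacr, Cpt1a, Akr1d1, Pnpla3, Acaca and Fabp1, among them Fabp1, the fatty acid binding protein of liver, whose only probe read 114 and 115.

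Transporters of the basolateral membrane, which faces the blood, had 21 of 30 above the reference and 4 in the top 5%, or 2 with ranks among genes and 1 when all probes were averaged. Slco2a1 (a prostaglandin carrier) read 5022 and 5224, Aqp9 (a glycerol and water channel) 4674 and 4683, Slc22a18 2259.8 and 2303 and Slc2a1 (the glucose transporter GLUT1) 2061 and 2329.6. Slc2a2 (GLUT2, the glucose transporter typical of hepatocytes) had a level of 2.74. The bile salt importer Slc10a1 and the organic anion importers Slco1b2 and Slco1a1 had levels of -0.06, 1.02 and 0.05. Of these Slc10a1 and Slco1a1 were at or under the reference, as were Slc51a, Slc51b, Slc13a5, Slc16a13, Aqp3 and Abca1.

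Canalicular pumps, which export into bile, had 8 of 11 above the reference. Abcb4 (a phosphatidylcholine floppase) read 1759 and 1684, Abcc2 (an exporter of conjugates) 608 and 585, Atp8b1 606 and 471 and Abcg5 (a sterol exporter) 503 and 423. Abcb11, the bile salt export pump, had a level of 0.51, and Abcb1a, Abcg2 and Atp7b were at or under the reference.

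Amino acid carriers had 13 of 17 above the reference, led by Slc6a13 (a GABA and taurine transporter) at 4708 and 4152 and Slc6a6 (a taurine transporter) at 4171 and 3788. Slc38a2 (a neutral amino acid importer) read 1805 and 2053 and Slc6a12 (a betaine and GABA transporter) 1656 and 2012. Metal carriers had 10 of 11 above it, led by Slc40a1 (ferroportin, the iron exporter) at 5266 and 4370.2 and Slc39a4 (a zinc importer) at 2918 and 3333. Tfrc and Tfr2, the transferrin receptors, had levels of 3.15 and 2.73. Mitochondrial carriers had 9 of 11 above it, and Slc25a5 (an ADP and ATP exchanger of many tissues) at 15992 and 15129.5 was the only transporter in the top 1% of probes. Slc25a47, a mitochondrial carrier known mainly from liver, read 2544 and 2480.0, Slc25a20 (the carnitine carrier) 2369 and 2004 and Slc25a1 (the citrate carrier) 1986 and 2211.

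Liver-enriched transcription factors had 19 of 23 above the reference and 6 in the top 5%, with a median of 2.10. Cebpb (a C/EBP factor of the acute phase) read 7532 and 8333, Atf5 8318 and 7293, Hhex (a homeobox factor of liver development) 4487 and 4401 and Foxa3 3478 and 2969.9. The FOXA family spread from Foxa3 at 4.49 over Foxa1 at 1.68 to Foxa2 at 1.45. Within the C/EBP family, Cebpb had a level of 5.79 and Cebpa, the form that dominates in quiescent liver, of 0.54.

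Nuclear receptors, which sense hormones, bile acids and lipids, had 20 of 33 above the reference and a median of 0.39. The 2 in the top 5% became 1 when all probes were averaged and 0 with ranks among genes. Nr2f6 read 2269 and 2458, Nr1h4 (FXR, the bile acid receptor) 2363 and 1760.2, Rora 1649 and 1820.0 and Nr1h3 (LXRα, a sterol receptor) 1362 and 1175. Nr1i2 (PXR) had a level of 2.44 and Nr1i3 (CAR) of 0.39. Nr3c1, the receptor through which the dexamethasone of the medium acts, was just above the reference at 163 and 158. The 12 at or under the reference included Ppara, Thrb, Esr1, Nr0b2 and Nr1d1.

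Metabolic and stress factors had 34 of 40 above the reference and 6 in the top 5%. Xbp1 (secretory capacity and the unfolded protein response) read 6843 and 6836, Atf4 (the integrated stress response) 6171 and 7306, Rela (a subunit of NF-κB) 3475 and 3854 and Bhlhe40 (a clock repressor) 3700.2 and 3472. The immediate early genes Egr1, Jun and Fos had levels of 3.67, 1.70 and 0.93 without TNFα. Stat3, which carries interleukin-6 signals, had 3.47. Hlf, Stat5b, Ahr and Cry1 were at or under the reference.

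Receptors were the functional class closest to the reference. Among TNF, interleukin-1 and pattern receptors, 13 of 27 were above it and 1 in the top 5%. That member, Tnfrsf12a, the receptor of the cytokine TWEAK, read 9341 and 11957, in the top 1% of probes. Tnfrsf1a, the main receptor of soluble TNFα and so of the treatment used in this series, read 307 and 355, at a level of 1.21, and the second TNFα receptor Tnfrsf1b read 169 and 172. Cd14 (a co-receptor of bacterial lipopolysaccharide) read 593 and 768, Tnfrsf10b and Fas (death receptors) 553 and 517, and 534 and 470.1. Il1r1, the interleukin-1 receptor, was above the reference on replicate 2 only, and Tlr4, the lipopolysaccharide receptor, was at or under it.

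Class I and II cytokine receptors had 18 of 41 above the reference and none in the top 5% on both arrays, though each single array had 1. Ifngr1 (interferon gamma) read 1377 and 1709, Ghr (growth hormone) 1814 and 1279, Il17rc 850.2 and 1022 and Il6st (gp130, shared by the interleukin-6 family) 512 and 560.1. Il6ra and Osmr, which pair with gp130, had levels of 1.03 and 1.08. The 18 at or under the reference included Ifnar1, Il4ra, Lepr and Il22ra1, and also receptors typical of lymphocytes and myeloid cells such as Il2ra, Il7r and Csf2rb.

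Growth factor, hormone and clearance receptors had 23 of 35 above the reference and 5 in the top 5%, or 2 when all probes were averaged or with ranks among genes. Egfr (the epidermal growth factor receptor) read 6079.8 and 5676, Asgr1 4810.4 and 3926, and the adiponectin receptors Adipor1 and Adipor2 3037 and 2601, and 2668 and 2785. Insr, the insulin receptor, had a level of 3.35, Gcgr, the glucagon receptor, of 0.97 and Met, the receptor of Hgf, of 0.16. Scarb1, a receptor for high-density lipoprotein, was at or under the reference (135 and 150.1), and Igf1r and Met exceeded it on 1 array only.

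Of the markers of other cells that a hepatocyte preparation could hold, 26.9% were above the reference, against 45.4% of all listed genes. Only endothelial markers exceeded that share, with 54.2% above the reference. Kupffer cell and macrophage markers had 9 of 26 above it and 11 at or under it on both arrays, with Lyz1 at 273 and 286, Mpeg1 at 277 and 224, Vsig4 at 234 and 224 and Laptm5 at 218 and 222, while Clec4f, Cd5l, C1qa and Ptprc were at or under it. Endothelial markers had 13 of 24 above it, with Egfl7 at 899 and 1064, Esam at 328 and 358 and the sinusoidal scavenger receptors Stab2 and Stab1 at 345 and 324, and 325 and 291. Stellate cell and fibroblast markers had 7 of 26 above it: Acta2 (smooth muscle actin) read 1343 and 1812, Ecm1 835 and 641, and the matrix genes Dcn (decorin) and Reln (reelin) 443 and 414, and 387 and 372. Lrat, Des, Col1a1, Col3a1 and Pdgfrb were among the 15 at or under it. Without untreated replicate 1, 1 marker of these cells lay in the top 5%. Bile duct markers had 5 of 13 above it, led by Cldn4 at 3943 and 3414, the only marker of other cells in the top 5% on both arrays, and Sox9 at 852 and 842, with Krt23 at 259 and 295 and Krt19 at 199.8 and 208 and with Epcam, Cftr, Pkhd1 and Tspan8 at or under it. None of 17 lymphocyte and none of 7 mesothelial markers was above the reference, and of 17 neutrophil and erythroid markers Alas2 was, at 162 and 157. Without untreated replicate 2 these counts were 1, 1 and 4, without untreated replicate 1 the lymphocyte count was 2, and with the reference at its 99th percentile Alas2 did not exceed it. In these bulk arrays fewer cells of a type and less RNA per cell cannot be told apart.

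**Figure D3:**
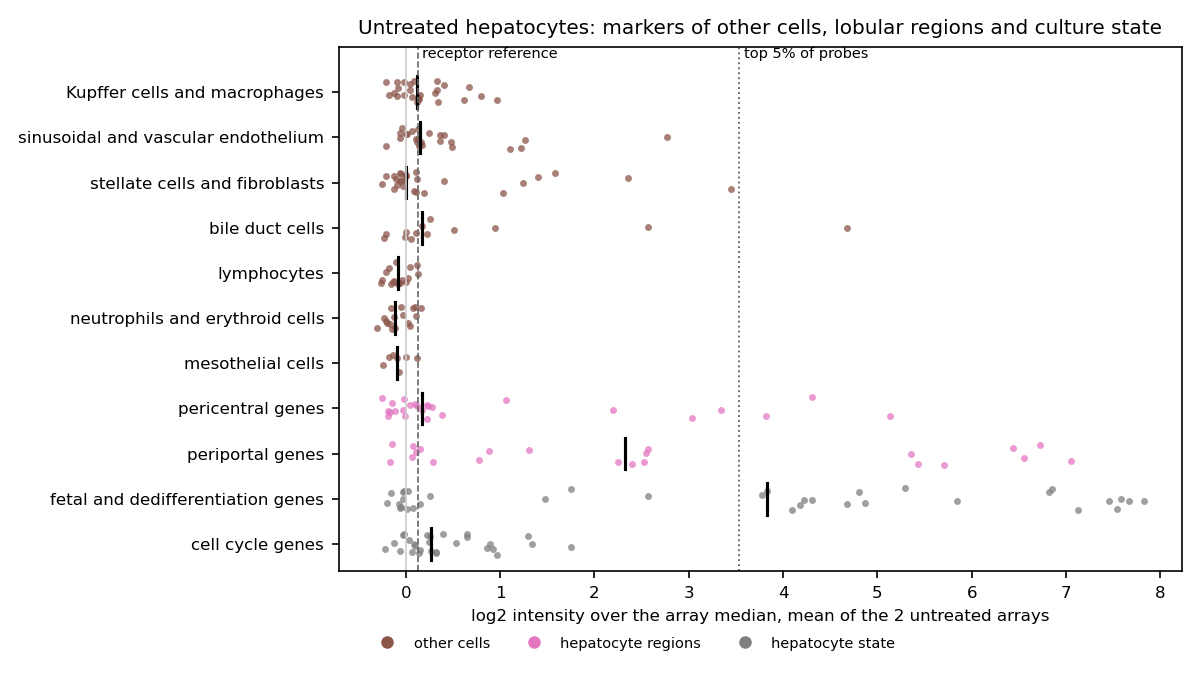
Level of each listed gene (1 point per gene) in 7 lists of markers of other cells, 2 lists of lobular regions and 2 of culture state, as log2 intensity over the array median, mean of the 2 untreated arrays; black bars are list medians, the dashed line is the receptor reference and the dotted line the lower edge of the top 5% of probes. Medians of the other cell lists lie between -0.12 and 0.17, against 2.33 for periportal genes and 3.83 for fetal and dedifferentiation genes.

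The liver lobule is zoned, with genes of urea and glucose synthesis high near the portal vein and genes under Wnt control high near the central vein. Of 22 periportal genes 16 were above the reference and 7 in the top 5%, at a median of 2.33, and of 25 pericentral genes 11 and 3 (1 with ranks among genes), at a median of 0.17. The brightest periportal genes were Serpina1c, Arg1, Cps1 and Apoa4 (an apolipoprotein, 11307 and 13583). Among pericentral genes Cyp2a5 read 5447 and 4634, Aldh1a1 (retinal oxidation) 3232 and 2495, Cldn2 (a tight junction protein) 2070.2 and 1960.3 and Oat (ornithine aminotransferase) 1450.2 and 1462. Glul, glutamine synthetase, which cells next to the central vein are known to make, was above the reference on 1 array only, and the Wnt pathway genes Axin2, Lgr5, Notum, Znrf3, Rnf43, Nkd1 and Sp5 were at or under it. Axin2, Notum, Znrf3, Rnf43 and Nkd1 are feedback inhibitors that Wnt signals induce.

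The members of the fetal and dedifferentiation list fell into 2 sets. Of 35 listed, 22 were above the reference, 19 of them in the top 5%, and 11 were at or under it. The name of the list says why its members were chosen and not what made them bright. No cells fresh from the liver were measured, so a change of these levels in culture was not tested. The bright set held many cytoskeletal and membrane-associated genes, and also the transcription factor Sox4 at a level of 3.83. Krt8 (a keratin of simple epithelia) read 31465 and 33435 and Tmsb10 (an actin-binding thymosin) 26749 and 31789. Anxa2 (an annexin) read 27587 and 27272 and Actb (beta-actin) 24554 and 28794. Vim (vimentin, the intermediate filament of mesenchymal cells) had a level of 4.23 and Lgals3 of 5.29. Fetal liver genes such as Afp, Igf2, Gpc3 and Dlk1 were at or under the reference. So were the tubulin Tubb2a and the annexin Anxa1, both at a level of -0.03. Cell cycle genes had 17 of 28 above the reference and none in the top 5%, led by the replication helicase subunit Mcm4 at 502 and 461, Tyms (thymidylate synthase) at 356 and 366, Mcm6 at 390.2 and 318 and the licensing factor Cdt1 at 283 and 277, with Top2a, Ccna2, Ccnb2 and Tk1 at or under it.

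Outside the lists, the brightest genes of the untreated arrays were mainly of the translation machinery. Rps2 (a ribosomal protein) read 46123 and 47014, and Rplp1, Rpl41, Rpl38, Rps29, Rps12, Rpl37 and Rpl9 were also among the 15 brightest, as was the elongation factor Eef1a1 at 43932 and 43932. Fth1 (ferritin heavy chain, which stores iron) read 41812 and 42351, Mif (a cytokine stored in many cells) 40741 and 42177, Gpx1 (glutathione peroxidase) 40147 and 41417 and Mt1 (a metallothionein that glucocorticoids and metals induce) 36364 and 38615. Ppia and Atp5b, of protein folding and of ATP synthesis, completed these 15.

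For most genes above the reference the 2 untreated arrays differed little, but the median levels of some classes differed more. Over these 8643 genes the median size of the difference between replicates was 0.11 on the log2 scale, its 95th percentile was 0.34, 69 genes differed by over 0.5 and 1 by over 1. Across genes, which are not independent replicates, Pearson's r was 0.995 above the reference and 0.473 among the 9011 genes at or under it. Mup5 differed most, with 2792 and 1291, a log2 difference of -1.11 (replicate 2 minus replicate 1). Wfdc21 (a secreted WAP domain protein) read 1110.0 and 608, Rbp4 (the retinol carrier) 4078 and 2255 and Fmo5 (a monooxygenase) 3188 and 1978, each lower on replicate 2 by 0.87, 0.86 and 0.69. Hao1, Bbox1, Ccl9 and the mitochondrially encoded COX2 were also lower on replicate 2, by 0.68, 0.71, 0.75 and 0.72, and Acot2 and Plekhj1 were higher there, by 0.83 and 0.66. Median levels on replicates 1 and 2 were 3.67 and 3.29 for secreted proteins, 2.35 and 2.03 for enzymes and 1.31 and 1.17 for transporters. Receptors went the other way, with 0.18 and 0.26, as did the list of fetal and dedifferentiation genes, with 3.65 and 3.99. Within secreted proteins, the median size of the difference was 0.30 for coagulation and fibrinolysis genes. With 2 arrays these differences have no test.

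**Figure D4:**
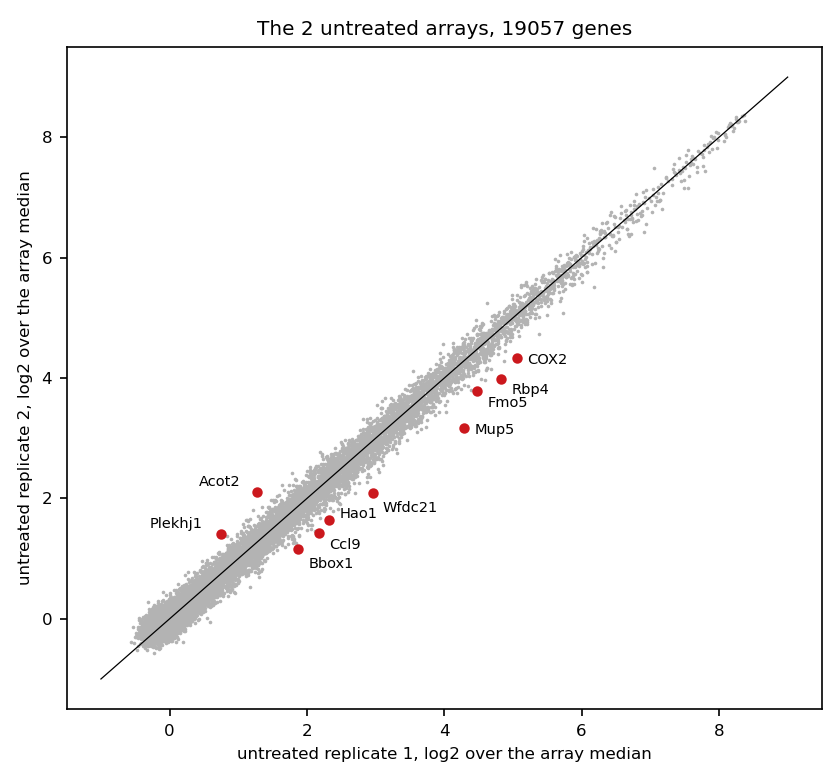
Each of 19057 genes on the 2 untreated arrays, as log2 intensity over the array median on replicate 1 (horizontal axis) and replicate 2 (vertical axis); the line marks equal levels and red points the 10 genes above the receptor reference with the largest difference. Most genes lie along the line, Mup5 is farthest from it at 4.28 and 3.17, and 8 of the 10 red points lie under the line.

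Different probes of a gene did not always read alike, which bears on every level above. Of the 864 genes with several probes and at least 1 in the top 5% of the untreated arrays, 304 (35.2%) had another probe at or under the reference. Among the members it was 27 of 94 (28.7%). The other probe of Krt8 read 126 and 129, that of Crp 131 and 128, and the dimmest of the 6 probes of Egfr 132 and 129. Hpx, Ahsg, Hp, Apoa2, Arg1 and Cps1 had no probe under the reference. A gene with 1 dim probe, such as Alb, Fgb or Fabp1, has no second reading.

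The untreated levels were then set against the TNFα arrays, to ask which members stood elsewhere after treatment. In a limma fit of all 6 arrays, with Benjamini-Hochberg adjustment over 13438 genes and an adjusted p under 0.05, 2.82% of the genes tested passed at 2 hours (1.76% above the untreated level, 1.06% below it) and 12.7% at 2 days (6.74% above, 5.92% below). Both comparisons share the untreated arrays. At 2 hours, transcription factors had 9 of 84 tested members called higher and 6 lower, and receptors 9 of 87 called higher. In each other class at most 6 members were called in either direction. After normexp correction the counts were 6 higher and 1 lower for transcription factors and 4 higher for receptors, and without untreated replicate 1 receptors had 5. Over all genes, 237 were called higher and 142 lower at 2 hours; these became 81 and 14 after normexp correction, 156 and 53 without 2 hour replicate 1 and 139 and 48 without 2 hour replicate 2, and the lower calls became 87 without untreated replicate 1.

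At 2 days, genes of liver enzymes and secreted proteins were called lower more often than higher. Enzymes had 66 of 163 tested members lower and 16 higher, with a median log2 difference of -0.19 against 0.01 over all genes tested. Within them, 20 of 30 enzymes of the urea cycle and amino acid breakdown and 19 of 28 P450 genes were called lower, with medians of -0.61 and -0.63. Secreted proteins had 47 of 124 lower and 8 higher, with a median of -0.20. Transporters had 21 of 73 lower and 8 higher, transcription factors 16 of 84 lower and 4 higher, and genes of lobular regions 18 of 40 lower. Receptors had 8 of 87 lower and 9 higher. In the other direction, 18 of 54 genes of culture state and 15 of 83 markers of other cells were called higher. After normexp correction the lower calls were 48 enzymes, 25 secreted proteins, 12 transporters, 5 transcription factors, 11 regional genes and 5 receptors, and the higher calls 7 enzymes, 3 secreted proteins, 5 transporters, 4 receptors, 11 state genes and 7 markers of other cells. Over all genes the counts became 349 higher and 306 lower after that correction, and 600 higher without 2 day replicate 2. Leaving out 2 day replicate 2 left 9 higher calls among markers of other cells, leaving out untreated replicate 2 left 10 among enzymes, and leaving out untreated replicate 1 left 5 lower calls among receptors.

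Lists of markers of other cells differed in how they stood at 2 days. The summed intensity of the 26 Kupffer cell and macrophage markers was 4340 and 4347 on the untreated arrays, 4216 and 4253 at 2 hours and 4884 and 5159 at 2 days, with 8 of 20 tested members called higher at 2 days. The 13 bile duct markers summed to 6625 and 6061 untreated, 6377 and 7076 at 2 hours and 11232 and 12764 at 2 days, with 3 of 10 called higher. Cldn4 and Sox9, which are also in the fetal and dedifferentiation list, carried most of that rise: the other 11 markers summed to 1830.0 and 1804 untreated and to 1928 and 2025 at 2 days. Stellate cell and fibroblast markers summed to 6488 and 6756 untreated and to 7705 and 8223 at 2 days, with 3 of 16 called higher and 1 lower. The median intensity of these markers was 143 and 147 untreated and 146 and 142 at 2 days, so the rise in the sum was not shared by the list. Endothelial markers summed to 5169.9 and 5187 untreated and to 5389 and 5362 at 2 days, neutrophil and erythroid markers to 2367 and 2293, then 2351 and 2339.8, and mesothelial markers to 938 and 958, then 969.6 and 939. Lymphocyte markers lay between 2305 and 2384 on all 6 arrays. Each sum includes background brightness, for which the receptor genes had a median of 133 per gene on the untreated arrays. The part of these differences in the changes of hepatocyte genes was not tested. No untreated array harvested with the 2 day cells is named in the labels, so time in culture and TNFα cannot be told apart there.

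Apoa4, a periportal gene in the top 1% of probes, read 11307 and 13583 without TNFα, 12313 and 12147 at 2 hours, and 3208 and 3116 at 2 days. The untreated and 2 hour arrays overlapped and the 2 day arrays lay under both, a log2 difference of -1.97 (SE 0.11, adjusted p = 4.82e-13) by limma at 2 days, and its other probes fell by 2.19 and 1.97. Serpina10, an inhibitor of coagulation factor X that works with protein Z, read 7617 and 6805 without TNFα, 6428 and 6836 at 2 hours, and 2766 and 3642 at 2 days, a 2 day difference of -1.18 (SE 0.12, adjusted p = 3.34e-08). Proz, protein Z itself, read 528 and 370.1 without TNFα, 415 and 441 at 2 hours, and 184 and 202 at 2 days, a difference of -1.20 (SE 0.12, adjusted p = 9.04e-08) by limma, with a drop of 0.39 for its other probe. Vegfa, the endothelial growth factor, read 1350.0 and 1398 without TNFα, 1167 and 1365 at 2 hours, and 710.3 and 581 at 2 days, a difference of -1.10 (SE 0.11, adjusted p = 5.79e-08), with drops of 0.10 and 0.76 for its other probes. All 4 were lower on both 2 day arrays than on every other array.

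Among enzymes and transporters, Gsta4, a glutathione transferase that clears lipid peroxidation products, read 341 and 318 without TNFα, 342 and 389 at 2 hours, and 773 and 686 at 2 days, a 2 day difference of 1.15 (SE 0.11, adjusted p = 1.01e-08) by limma. Gulo, which in mice makes vitamin C, read 1264 and 1091 without TNFα, 1264 and 1289 at 2 hours, and 513 and 584 at 2 days, a difference of -1.10 (SE 0.11, adjusted p = 2.30e-08). Gsta4 rose and Gulo fell, without overlap between untreated and 2 day arrays. Slc25a47 read 2544 and 2480.0 without TNFα, 2072 and 2145 at 2 hours, and 681 and 858 at 2 days, a difference of -1.72 (SE 0.11, adjusted p = 1.40e-11) by limma at 2 days. Slc27a2, which imports and activates very long-chain fatty acids, read 1929 and 1567 without TNFα, 1346 and 1673 at 2 hours, and 792 and 830.1 at 2 days, a difference of -1.10 (SE 0.12, adjusted p = 1.16e-07), and its other probe fell by 1.08. Abcc2 went the other way and rose, reading 608 and 585 without TNFα, 662 and 845 at 2 hours, and 1316 and 1024 at 2 days, a difference of 0.96 (SE 0.12, adjusted p = 2.22e-06) at 2 days by limma, with 0.42 for its other probe. Slc39a4 also rose, reading 2918 and 3333 without TNFα, 3333 and 3272 at 2 hours, and 5461 and 4878 at 2 days, a difference of 0.73 (SE 0.10, adjusted p = 1.30e-05).

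Among receptors, Egfr read 6079.8 and 5676 without TNFα, 4715 and 5236 at 2 hours, and 3389.9 and 3559 at 2 days, a 2 day difference of -0.76 (SE 0.10, adjusted p = 5.10e-06) by limma, while its other 5 probes gave differences from -0.98 to 0.05. Il17rb, a receptor of interleukin-25, read 457 and 387 without TNFα, 475 and 481 at 2 hours, and 227 and 230.1 at 2 days, a difference of -0.88 (SE 0.10, adjusted p = 6.80e-07). On the probes used both fell at 2 days, with 2 day arrays under all untreated and 2 hour arrays. The bright probes of Egfr did not all fall. Those at untreated log2 intensities of 11.4, 10.9, 10.4, 8.58 and 7.03 gave 2 day differences of -0.98, -0.07, -0.04, -0.56 and 0.05, in that order. Fgfr2, a fibroblast growth factor receptor, read 189 and 180.3 without TNFα, 429 and 461 at 2 hours, and 255 and 272 at 2 days. Its difference was 1.27 (SE 0.10, adjusted p = 1.46e-09) by limma at 2 hours, with no overlap between the groups. The other 3 probes of Fgfr2 gave 2 hour differences between -0.06 and 0.15, so the call was made on 1 probe of 4.

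**Figure D5:**
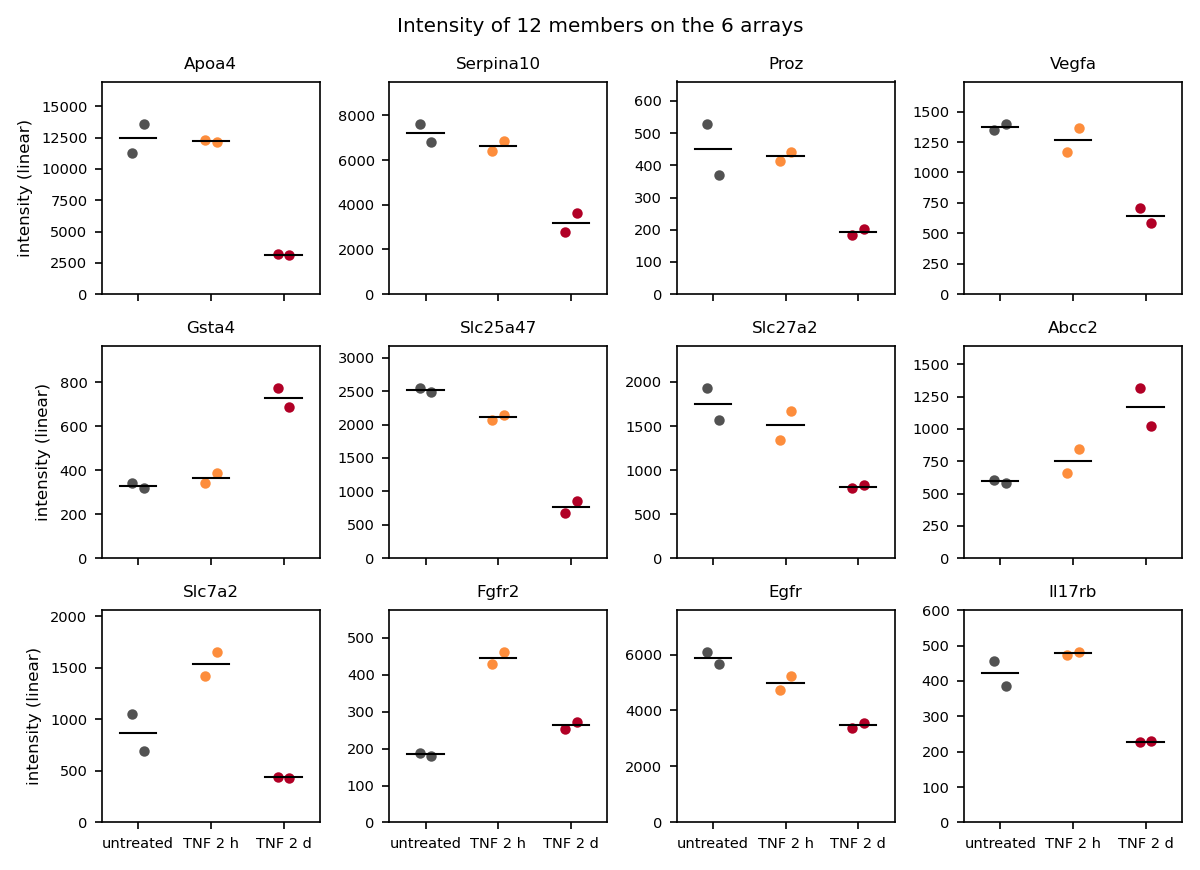
Intensity (linear, vertical axis) of 12 members on the 6 arrays, by group (horizontal axis); points are arrays and bars group means. Apoa4, Serpina10, Proz, Vegfa, Slc25a47, Slc27a2, Egfr and Il17rb are lowest at 2 days, Gsta4 and Abcc2 highest at 2 days, and Fgfr2 and Slc7a2 highest at 2 hours.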

How the data were processed

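Total RNA was labelled with biotin and hybridised to single-colour Illumina mouse BeadChips, per the labels' protocols. The deposited values are intensity values on a linear scale for each probe; software, background correction and normalization are not given in the sources used here. All 6 arrays share one distribution of values, as quantile normalization leaves, and no background was subtracted down to 0. This fixes the median of every array, so a global shift cannot be seen. Of the 45281 probes, 34885 had 1 listed gene symbol, 18 several and 10378 none; 34807 were updated through gene identifiers to the RefSeq table of GRCm38.p6, giving 19057 genes. The annotation can be old. The number of arrays limits the precision.

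A gene was read from the probe with the highest mean log2 intensity over 6 arrays. Comparisons with TNFα used limma 3.58.1 in R 4.3.3 on log2 intensities of all 6 arrays, for 13438 genes over the 50th percentile on at least 2 arrays, with Benjamini-Hochberg adjustment and a threshold of 0.05; the fit was tested on simulated data. Members and lists were chosen with earlier results of these data known. Eligible for naming by rule were the 4 brightest members of each list and members at or under the reference. Up to 2 called members per list and comparison, the 15 brightest genes outside the lists and the 10 largest replicate differences were eligible too. Clone and locus names were passed over. Called members given a limma test in the Results kept that call under every alternative tried. Of those flagged below, Slc7a2, Abcg5 and Lcat lost the 2 hour call under at least 1 alternative, and Lcat also its 2 day call. Alternatives were the mean of a gene's probes, normexp correction (offset 16), other reference percentiles, ranks among genes, other scalings and filters, a replicate block and each array left out.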

Additional observations from a re-analysis of the deposited data

Results flagged for a closer look

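Of the probes in the top 1% of both untreated arrays, 130 had no listed gene and entered no comparison.

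Among the members named by rule in the TNFα comparisons, 6 had both 2 hour arrays above and both 2 day arrays under the 2 untreated arrays. The members looked at had been named for a called change. The share of all genes with this order was not counted, so the number is no finding about these members. Slc6a12 has the order narrowly, with 2015 on 2 hour replicate 2 against 2012 on untreated replicate 2. The difference between the times was not tested, and both times share the untreated arrays. Slc7a2, an importer of cationic amino acids, had a log2 difference from untreated of 0.85 at 2 hours and -0.96 at 2 days, -1.81 between them. For Abcg5, a sterol exporter, the values were 0.53, -0.63 and -1.16. For Lcat, which esterifies cholesterol in plasma, they were 0.47, -0.58 and -1.05. The stress factor Atf3 had 0.18, -0.92 and -1.10. The transporter of betaine and GABA Slc6a12 had 0.19, -0.90 and -1.09. The receptor gene Il17rb had 0.18, -0.88 and -1.06. The 2 hour differences of Atf3, Slc6a12 and Il17rb did not pass limma's test (adjusted p = 0.551, 0.534 and 0.538). Those of Slc7a2, Abcg5 and Lcat passed it, but not after normexp correction, where they were 0.93, 0.63 and 0.52 (adjusted p = 0.195, 0.280 and 0.338). Abcg5 also missed it without untreated replicate 2 or 2 hour replicate 2, and Lcat without untreated replicate 2 or either 2 hour array. At 2 days Lcat missed it after normexp correction.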

How the results depend on the processing

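Counts of members above the receptor reference stayed within 1.5 times in every class under every alternative run. Normexp correction keeps the order of probes on an array, so under it these counts could hardly change. When all probes of a gene were averaged, median levels became 2.81 for secreted proteins, 1.60 for enzymes, 0.64 for transporters, 0.79 for transcription factors, 0.087 for receptors, 0.27 for culture state and, with the sign reversed, -0.015 for markers of other cells; 5 transporters and 3 receptors lay in the top 5%. After normexp correction the levels were 4.89, 3.45, 2.25, 2.40, 0.45, 1.17 and 0.11 in that order and 0.70 for lobular regions, and the median replicate difference was 0.15. With ranks among genes, 7 transporters, 9 transcription factors and 3 receptors lay in the top 5%. On single untreated arrays levels ran from 3.29 to 3.67 for secreted proteins, 2.03 to 2.35 for enzymes and 1.17 to 1.31 for transporters. They ran from 1.30 to 1.37 for transcription factors, 0.18 to 0.26 for receptors and 0.34 to 0.37 for regions. For markers of other cells they ran from 0.032 to 0.036 (up to 2 in the top 5%), and for culture state from 0.53 to 0.54. At 2 hours averaging probes left 79 lower calls and normexp 81 higher and 14 lower; leaving out an array left 139 to 180 higher and 48 to 99 lower. At 2 days normexp left 349 higher and 306 lower, and leaving out an array 600 to 715 and 541 to 688. Of 30 members named at 2 days 21 kept their call under every alternative, and 1 of 10 at 2 hours. Deviations of same-numbered arrays from their group means had correlations across genes of -0.148, -0.0753 and 0.0364. With 2 arrays a group these cannot show whether replicate numbers mark paired samples. The replicate block gave 363 calls at 2 hours and 1638 at 2 days, against 379 and 1701; the crossed pairing, chosen after seeing the data, gave 290 higher and 233 lower at 2 hours. The cause of these shifts was not tested. Genes near the reference have little signal over background, and 2 arrays a group limit every comparison.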
